A study of Bos taurus with 18 samples.

Results

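The 8 transcription factors TWIST1, TWIST2, PRRX1, PRRX2, SNAI1, SNAI2, ZEB1 and ZEB2 were followed in bovine mesenchymal stem cells (MSCs), stromal cells that can form bone, fat and cartilage. They were taken by gene symbol from the deposited read counts, and all 8 were found among the 16989 genes of each file, of which 14441 had a read in some library. MSCs from the bone marrow of juvenile cows were grown on tissue culture plastic in DMEM with serum and antibiotics, and polyadenylated RNA was sequenced at passage 1, before any chondrogenic induction. The 17 clones, lettered A to Q, each grew from 1 cell and were each sequenced once. The heterogeneous population, an unsorted mixture of many cells, gave 1 further library. The labels give all libraries the same tissue, medium and passage and name no genotype and no treatment. They do not tell whether the clones came from 1 animal, so differences between donors and between clones cannot be told apart.

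These factors hold cells in, or move them into, the mesenchymal state. TWIST1 and TWIST2 are basic helix-loop-helix proteins that pair with E proteins. PRRX1 and PRRX2 are homeodomain proteins of limb and craniofacial mesenchyme, with PRRX1 also used as a mark of skeletal stem cells. The zinc finger proteins SNAI1 (Snail), SNAI2 (Slug), ZEB1 and ZEB2 bind E-box sites and repress epithelial genes such as CDH1, the gene of E-cadherin. In marrow stroma TWIST proteins are known to restrain bone cell differentiation.

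Reads on genes numbered 11484812 to 18458157 per clone, with 14193790 at the median, and 16092501 in the heterogeneous library, so that 3 reads correspond to 0.1625 to 0.2612 CPM (reads of a gene per 1000000 reads on genes) in a clone. Another 18.78% to 26.81% of the reads in a clone's file lay outside genes, the most in clone N. Clone N also stood apart from the other 16 in more genes than any other clone. Clones C and O were the most alike of the 136 pairs of clones. Their log2 levels differed with an SD of 0.2384 over 11477 genes, against a median of 0.73995 over all pairs, and their chi-square per gene was 4.9, against 22.33 for the next pair, E and F. The labels name C and O as separate clones, so they were kept as 2, but these values do not tell whether they came from different cells, and results were recomputed without them. Of the 8 mesenchymal stromal markers, 7 had a CPM above 1 in a clone, and their sum lay between 10200 and 18280 CPM. Most of that sum was VIM, at 8594 to 16130 CPM, and LEPR did not exceed 2 reads in a clone. The sum of the 7 epithelial markers reached no more than 6.073 CPM in a clone and was 9.01 CPM in the heterogeneous library. That of the 8 endothelial markers reached no more than 88.52 CPM in a clone. This was in clone L, where ERG alone stood at 82.66 CPM. The macrophage markers summed to 3.413 to 29.74 CPM in the clones and to 198.2 CPM in the heterogeneous library. Reads shared by near-identical stretches of a pair of paralogues cannot be assigned from these files, and the counting strand is not given in the sources used here, so reads from transcripts antisense to these genes cannot be told apart from theirs.

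All 8 factors were present in every library. Levels are given in CPM, which do not correct for gene length, so they compare 1 gene across libraries and not 1 gene with another. TWIST1 ran from 30.5 CPM in clone N through a median of 40.5 to 58.7 CPM in clone J. TWIST2 ran from 0.813 CPM in clone M, from 15 reads, through a median of 4.50 to 7.51 CPM in clone L, from 105 reads. The TWIST2 range was 9.24-fold and that of TWIST1 1.93-fold. PRRX1 lay between 262 CPM in clone L and 619 CPM in clone M, with a median of 388.0 CPM. PRRX2 lay between 117 CPM in clone Q and 465 CPM in clone I, with a median of 287 CPM. Clones P, N and Q had the lowest PRRX2, at 147.8, 156.5 and 116.8 CPM.

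SNAI1 was lowest in clone D at 10.7 CPM, had a median of 20.2 CPM, and was highest in clones C and O at 50.02 and 50.61 CPM, above the 34.3 CPM of clone G that came next. SNAI2 was lowest in those same clones, O at 46.7 CPM and C at 50.3 CPM, and highest in clones K and E at 129.3 and 129.5 CPM around a median of 85.5 CPM. ZEB1 was lowest in clone K at 69.0 CPM and highest in clones Q and P at 153.2 and 173.5 CPM, with a median of 95.8 CPM. ZEB2 had the smallest SD of the 8, from 21.0 CPM in clone O through a median of 33.8 to 44.1 CPM in clone I. Most clones that were neighbours in the order of a factor could not be separated by their 95% exact Poisson intervals, which cover counting error only. Of 16 neighbouring pairs, the intervals did not overlap in 10 for PRRX2, 5 for PRRX1, 3 for ZEB1, 2 for SNAI2 and 1 for SNAI1, and they overlapped in all 16 for TWIST1, TWIST2 and ZEB2. Such intervals narrow with more reads, and mean reads per clone went from 57.8 for TWIST2 to 6406.4 for PRRX1. The same count was not made over all genes, so these counts do not rank the factors by how far they separate clones.

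**Figure D1:**
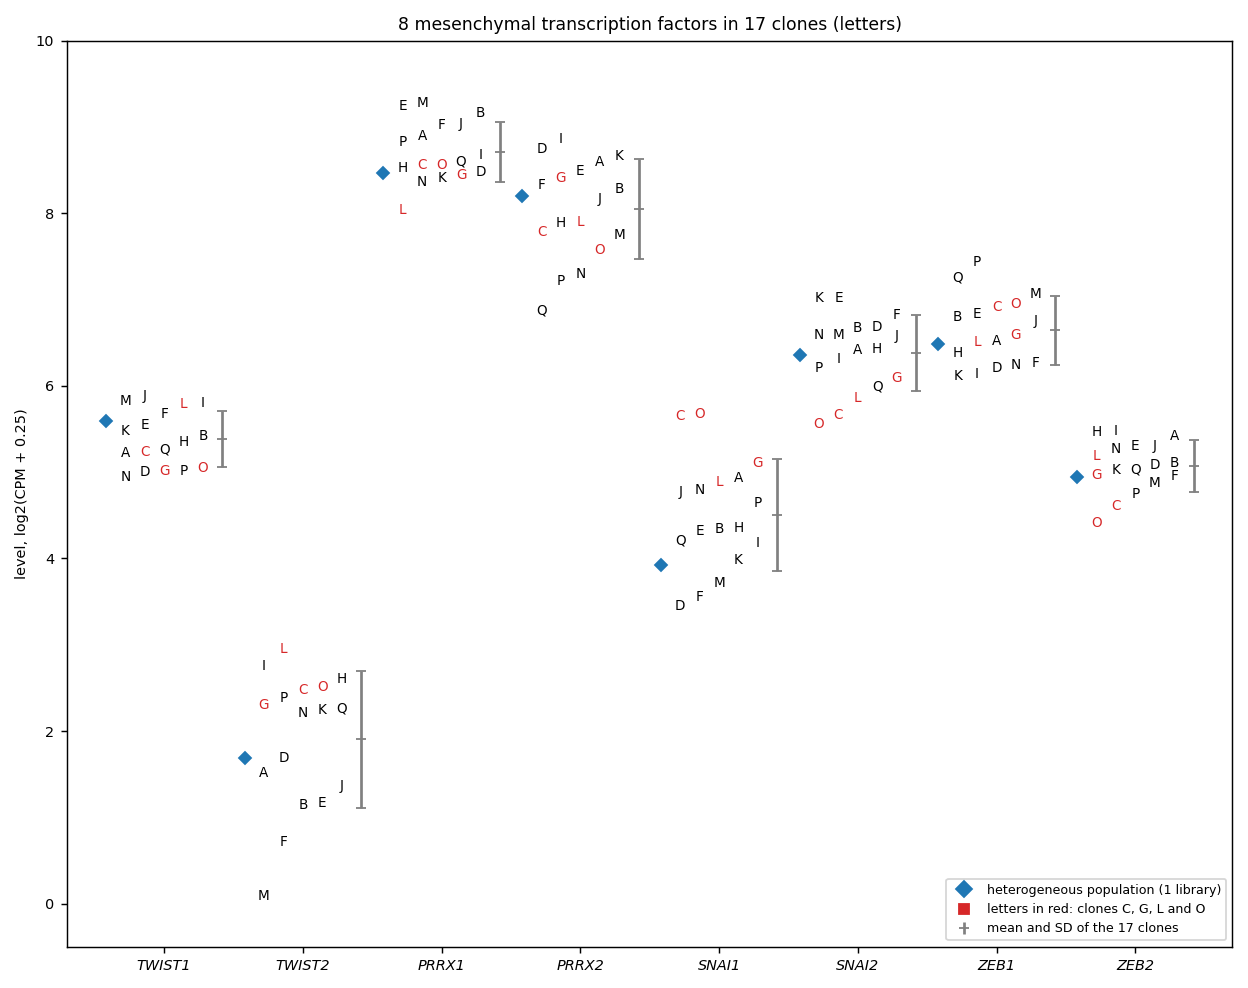
Level of each factor, as log2(CPM + 0.25), in the 17 clones (letters, C, G, L and O in red) and in the heterogeneous population (blue diamond); the grey bar gives the mean and SD of the clones, and letters are spread sideways for legibility only. The diamond lies within the range of the clones for all 8 factors, and TWIST2 spreads most (SD 0.79) and ZEB2 least (SD 0.30).

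To determine which factors varied most from clone to clone, the SD of log2(CPM + 0.25) over the 17 clones was compared with that of 11477 genes that exceeded a CPM of 1 in some clone, whose median SD was 0.35. TWIST2 (SD 0.79) exceeded 87.5% of these genes, SNAI1 (SD 0.65) 81.2% and PRRX2 (SD 0.58) 77.4%. SNAI2 (SD 0.44), ZEB1 (SD 0.40), PRRX1 (SD 0.35) and TWIST1 (SD 0.33) exceeded 64.2%, 59.5%, 50.3% and 46.1%. ZEB2 (SD 0.30) exceeded 39.5%. The order depended on the measure. Set against edgeR's trend of variation with read count, TWIST2 exceeded 79.8% of 10345 genes, below PRRX2 (88.4%), SNAI1 (88.2%), SNAI2 (85.1%) and ZEB1 (80.2%). With a pseudocount of 1 TWIST2 and SNAI1 had the same SD of 0.63. All 8 factors varied beyond counting error by an index of dispersion test against Poisson counts with 16 degrees of freedom, with an index from 14.19 for TWIST2 to 556.2 for PRRX2, where 1 is counting error alone. Of the 11480 genes tested, 98% passed the same test, so this is not particular to the factors. Each clone was sequenced once, and differences between clones and between library preparations cannot be told apart.

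Within each pair of paralogues, the balance shifted between clones. The ratio of SNAI2 to SNAI1 reads went from 0.923 in clone O, with 735 and 796 reads, to 9.85 in clone F, with 1704 and 173 reads, a span of 10.7-fold around a median of 3.53. The ratio of TWIST1 to TWIST2 reads spanned 11.6-fold, from 5.99 in clone O to 69.7 in clone M, where it rests on 15 TWIST2 reads. The ratio of PRRX1 to PRRX2 went from 0.832 in clone D to 3.32 in clone Q, and that of ZEB1 to ZEB2 from 1.60 in clone I to 6.52 in clone P. The SD of the log2 ratio over the clones was 1.02 for SNAI2 over SNAI1, 1.03 for TWIST1 over TWIST2, 0.63 for PRRX1 over PRRX2 and 0.61 for ZEB1 over ZEB2. The counting error of a single log2 ratio was at most 0.14, 0.38, 0.04 and 0.09 in the same order. As 98% of the genes tested varied beyond counting error, this does not show that such shifts are particular to paralogues. Ratios of other pairs of genes were not computed. A ratio of reads does not depend on the library total, so these shifts do not change with the normalization.

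To examine whether the factors differed between the mixed population and the clones, the heterogeneous library was set against the 17 clones with edgeR, with the single library assumed to vary as the clones do. None of the 8 factors passed an adjusted p of 0.05, and 0 had an unadjusted p below 0.05, also with limma and with DESeq2. Over all genes 1.22% were called (145 of 11878, of which 144 were higher in the heterogeneous library). The heterogeneous library held 48.2 CPM of TWIST1, above 12 of the clones, and 14.98 CPM of SNAI1, above 3 of them. The log2 difference was 0.25 (SE 0.36) for TWIST1, -0.29 (SE 0.71) for TWIST2, -0.23 (SE 0.45) for PRRX1, 0.12 (SE 0.58) for PRRX2, -0.62 (SE 0.63) for SNAI1, -0.03 (SE 0.49) for SNAI2, -0.14 (SE 0.43) for ZEB1 and -0.08 (SE 0.32) for ZEB2, with edgeR's adjusted p between 0.818 for SNAI1 and 0.992 for SNAI2. These errors leave room for differences in either direction, so they do not show that the factors were equal. Of the 11 macrophage markers tested, 8 were higher in the heterogeneous library, among them CD68 (38.5 CPM against 0.921 to 3.19 CPM in the clones, adjusted p = 6.97e-08 by edgeR) and CD163 (41.5 CPM against 0 to 0.871 CPM, adjusted p = 5.79e-06 by edgeR). PTPRC, the pan-leukocyte marker, had a median of 0 reads in the clones and 6.34 CPM in the heterogeneous library. Fewer cells of a type and less RNA per cell cannot be told apart in such bulk libraries, and the part of macrophage RNA in the levels of the 8 factors was not tested.

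Each clone was then set against the other 16 with the same test. None of the 136 combinations of a factor and a clone passed an adjusted p of 0.05 by edgeR or limma, and 0.045% of the 199937 combinations of a gene and a clone did, 86 of these 90 in clone N and 4 in clone M. At an unadjusted p below 0.05 there were 7 combinations of a factor and a clone by either tool, and 4.4% of all genes and clones had such a p by edgeR. The 7 were TWIST2 in clone M (log2 difference -2.15, SE 0.73), PRRX2 in clone Q (-1.38, SE 0.60), SNAI1 in clone O (1.06, SE 0.48) and clone C (1.06, SE 0.48), PRRX1 in clone L (-1.001, SE 0.445), ZEB2 in clone O (-0.82, SE 0.30) and ZEB1 in clone P (0.77, SE 0.36), with adjusted p between 0.565 and 0.939 by edgeR.

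To examine whether the factors rose and fell together, Pearson's r and Spearman's rho of log2(CPM + 0.25) over the 17 clones were computed with two-sided permutation p-values (100000 resamples), adjusted over all 91808 combinations of a factor and a gene. Of the 28 pairs of factors, 3 were called, all with opposite levels. Over all combinations of a factor and a gene 11.3% were called, and 5.9% with a negative r. A count of 3 in 28 is near that background. A further 5 pairs had an unadjusted p below 0.05. TWIST2 and PRRX1 had r = -0.83 (permutation p = 6e-05, adjusted p = 0.00579) and rho = -0.66 (permutation p = 0.00519, adjusted p = 0.0571). The r remained at -0.79 without clones F and M, the farthest from the median of TWIST2, lay between -0.86 and -0.80 when each clone was left out, and was -0.83 when libraries were scaled by the trimmed mean of M values (TMM) in place of the library total. In the 13 clones left without C, G, L and O, r was -0.79 and the adjusted permutation p 0.0939. Clones M, E, B, F and J combined high PRRX1 with low TWIST2, and clone L was at the opposite end with the lowest PRRX1 and the highest TWIST2.

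The 2 Snail paralogues also had opposite levels, with r = -0.74 (permutation p = 0.00075, adjusted p = 0.0162) and rho = -0.72 (permutation p = 0.00173, adjusted p = 0.0318). This call rested on clones C and O, the closely alike pair. Without both, r was -0.52 with an adjusted permutation p of 0.234, and the call was also lost without clone C alone (r = -0.67) and without clone O alone (r = -0.66). With TMM r was -0.64 with an adjusted permutation p of 0.0549. PRRX2 and ZEB1 had r = -0.66 (permutation p = 0.00389, adjusted p = 0.0401) and rho = -0.69 (permutation p = 0.00307, adjusted p = 0.0429). That call was lost in 13 of the 17 runs that left out 1 clone (A, C, D, F, G, I, J, K, L, M, O, P or Q), at r = -0.43 without clones P and Q, the 2 farthest from the median of PRRX2, and at r = -0.41 with TMM (adjusted permutation p = 0.286). It was strongest, at r = -0.82, without clone N, which is low in both.

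The other pairs of paralogues were not called. TWIST1 and TWIST2 had r = -0.34 (rho = -0.20, adjusted permutation p = 0.412), PRRX1 and PRRX2 r = 0.14 (rho = 0.02, adjusted permutation p = 0.783), and ZEB1 and ZEB2 r = -0.52 (rho = -0.50, adjusted permutation p = 0.141). With TMM the calls were TWIST2 with PRRX1, TWIST2 with SNAI2 (r = -0.69, against -0.60 with the library total) and SNAI2 with ZEB2 (r = 0.66, against 0.51). The last of these was 0.05 without clones C and O, by library total.

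**Figure D2:**
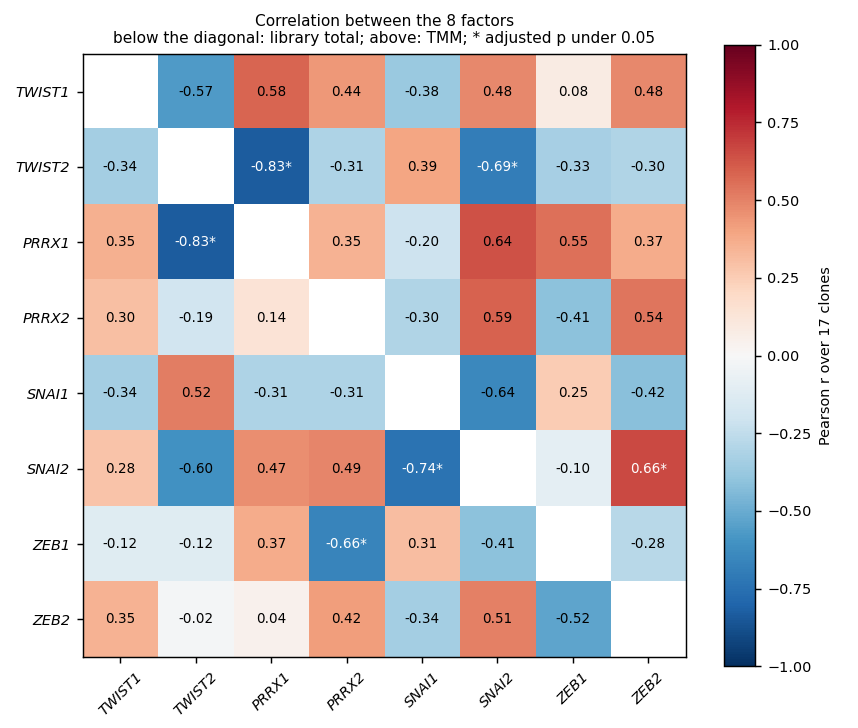
Pearson r between the 8 factors over the 17 clones, from log2(CPM + 0.25) with the library total below the diagonal and with TMM scaling above it; red is positive, blue negative, and a star marks an adjusted permutation p under 0.05. TWIST2 with PRRX1 (-0.83 under both) is the only starred pair on both sides.

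**Figure D3:**
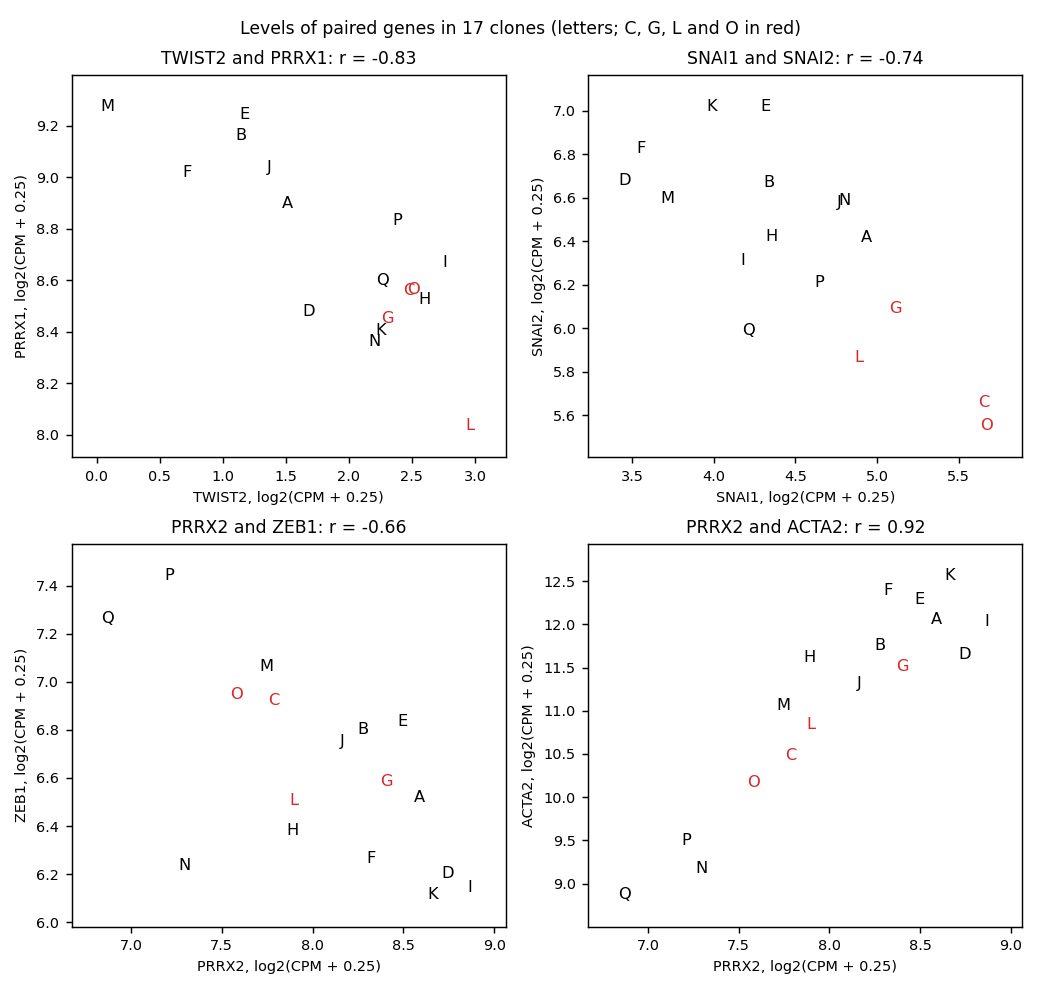
Levels of the 3 called pairs of factors, and of PRRX2 with ACTA2, in the 17 clones (letters, C, G, L and O in red), both axes as log2(CPM + 0.25). Clones C and O lie at the end of the SNAI1 and SNAI2 panel, clones P and Q at the end of the PRRX2 and ZEB1 panel, and the PRRX2 and ACTA2 panel rises from clone Q to clones I and K.

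To place each factor among the other genes, the same correlation was run against the 11476 other genes with a CPM above 1 in a clone. The split between higher and lower calls moved with the scaling. With the library total, 18.5% of genes were called positive with TWIST2 and 1.36% negative, and with TMM 5.13% and 3.89%. For PRRX1 the library total gave 1.12% positive and 15.2% negative, and TMM 4.9% and 5.35%. SNAI1 had 13.7% positive and 4.23% negative (TMM 7.81% and 5.26%), and SNAI2 4.5% and 17.9% (TMM 9.48% and 12%). PRRX2 had 3.83% positive and 5.18% negative (TMM 6.61% and 5.28%). Few genes followed the other factors. TWIST1 had 0.349% positive and 0.514% negative (TMM 1.41% and 1.22%), ZEB1 0.749% and 1.86% (TMM 1.06% and 0.828%), and ZEB2 0.845% and 0.967% (TMM 1.89% and 3.44%). The median r over all genes was 0.32 for TWIST2 and -0.33 for PRRX1 with the library total and -0.0044 and -0.0075 with TMM. TMM values are given beside many of the relations below, but not all.

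The genes most like TWIST2 over the 17 clones were TTC7A (r = 0.92, rho = 0.88), PTK2 (r = 0.91, rho = 0.86), the gene of focal adhesion kinase, and PACSIN2 (r = 0.90, rho = 0.78), with TMM values of 0.89, 0.81 and 0.85 for r. These were picked for likeness, so no test is given, and the same holds for the genes most like the other factors. Those most like PRRX1 were CPT2 (r = 0.89, rho = 0.85), an enzyme of fatty acid oxidation, the kinase gene NUAK1 (r = 0.87, rho = 0.79) and PTPRQ (r = 0.85, rho = 0.87). Those most like TWIST1 were PRKAR2B (r = 0.74, rho = 0.75), EPB41L3 (r = 0.74, rho = 0.72) and PTGFR (r = 0.74, rho = 0.75), the receptor of prostaglandin F.

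Of the 18 mesenchymal genes tested, 4 were called with PRRX1, all positive (median r 0.18 over the list, -0.33 over all genes), and 4 with TWIST2, of which 3 were negative (median r -0.20, against 0.32 over all genes). Of all genes, 1.12% were called positive with PRRX1, and 1.36% negative and 18.5% positive with TWIST2. COL3A1, the type III collagen chain of fibrous tissue, went from 3311 CPM in clone N to 31030 CPM in clone M, and SPARC, a collagen-binding matrix protein, from 8194 CPM in clone L to 35050 CPM in clone M. COL3A1 had r = 0.81 with PRRX1 (rho = 0.75, adjusted permutation p = 0.00541, TMM 0.85) and r = -0.83 with TWIST2 (rho = -0.69, adjusted permutation p = 0.00512, TMM -0.84). SPARC had r = 0.80 with PRRX1 (rho = 0.75, adjusted permutation p = 0.00751, TMM 0.87) and r = -0.82 with TWIST2 (rho = -0.81, adjusted permutation p = 0.00512, TMM -0.81). The type I collagen gene COL1A2 had r = 0.78 and -0.80 with PRRX1 and TWIST2 (TMM 0.86 and -0.79), and COL1A1 had r = 0.64 with PRRX1 (TMM 0.75). COL1A1 alone stood at 15240 to 92690 CPM in the clones. The fourth gene called with TWIST2 was PDGFRA, a stromal growth factor receptor, with r = 0.76 (TMM 0.70). Without clones C, G, L and O none of these relations was called. The adjusted permutation p was then 0.0735 for COL3A1, 0.144 for SPARC, 0.129 for COL1A2 and 0.211 for COL1A1 with PRRX1, and 0.0788 for COL3A1, 0.102 for SPARC, 0.133 for COL1A2 and 0.136 for PDGFRA with TWIST2. Since TWIST2 and PRRX1 are themselves correlated, these are not separate observations.

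Among 28 other mesenchyme transcription factors tested, PRRX1 was called with 2, both negative, namely FOXC2 (r = -0.84, TMM -0.75) and the homeobox gene MSX1 (r = -0.83, TMM -0.79), and TWIST2 with 3, all positive, namely MSX1 (r = 0.80, TMM 0.71), FOXC2 (r = 0.75, TMM 0.67) and PITX1 (r = 0.64, TMM 0.55), the last 2 not called with TMM. Over all genes 15.2% were called negative with PRRX1 and 18.5% positive with TWIST2, so both counts lie below the background. Of the 9 lineage factors tested, SOX9, the master factor of cartilage, had r = 0.81 with TWIST2 (rho = 0.72, adjusted permutation p = 0.00579, TMM 0.78) and r = -0.67 with PRRX1 (rho = -0.61, adjusted permutation p = 0.0369, TMM -0.67). SOX9 itself lay between 2.55 CPM in clone M and 24.2 CPM in clone O. SOX5 was also called with PRRX1 (r = -0.67, TMM -0.62), and the muscle factor MYF5 with both (r = 0.83 with PRRX1 and -0.83 with TWIST2, TMM 0.83 and -0.84). MYF5 was near the floor, with 0 reads in clone C and a median of 0.1155 CPM, below the 0.1625 to 0.2612 CPM of 3 reads. Its highest count, 35 reads, was in clone M, the clone highest in PRRX1 and lowest in TWIST2. CEBPA, a fat cell factor, was the only lineage gene called with TWIST1 (r = 0.66, rho = 0.59, adjusted permutation p = 0.0323, TMM 0.77). No other gene of the lists was called with TWIST1, the 6 E protein and ID genes tested included. Without clones C, G, L and O the adjusted permutation p of these relations was above 0.05 except for FOXC2 (r = -0.80) and MYF5 (r = 0.89) with PRRX1. That run keeps clone M.

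The genes most like PRRX2 were ACTA2 (r = 0.92, rho = 0.87), the smooth muscle actin gene, TWF2 (r = 0.91, rho = 0.89), which encodes an actin-binding protein, and PPP1R14A (r = 0.90, rho = 0.84), an inhibitor of myosin phosphatase, with TMM values of 0.94, 0.91 and 0.90. ACTA2 was lowest in clone Q at 468.5 CPM, had a median of 2921 CPM, and was highest in clone K at 6048 CPM. Clones Q, N and P, lowest in PRRX2, were also lowest in ACTA2, as the plot of paired levels shows. The shares over all genes were 3.83% positive and 5.18% negative with PRRX2. Of the 18 mesenchymal genes tested, 5 were called positive with PRRX2 and 3 negative (median r 0.22 over the list, -0.16 over all genes). They included TAGLN, the gene of transgelin (r = 0.89, rho = 0.84, adjusted permutation p = 0.00435, TMM 0.91), and COL1A1 (r = 0.64, TMM 0.72). FN1, the gene of fibronectin, had the most negative r of all genes with PRRX2 (r = -0.92, rho = -0.91, TMM -0.84), from 11800 CPM in clone I to 61830 CPM in clone P. As FN1 is named here as an extreme, no test is given for it. Without clones P and Q the r of PRRX2 was 0.87 with ACTA2, 0.83 with TAGLN and -0.88 with FN1. Without clones C, G, L and O it was 0.92, 0.88 and -0.92 in the same order, with an adjusted permutation p of 0.0394 for TAGLN.

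Of all genes, 3.83% were called positive with PRRX2 and 5.18% negative. PRRX2 was called with 9 of the 28 other mesenchyme transcription factors, 4 positive and 5 negative (median r -0.01). Among them were EBF1 (r = -0.65, TMM -0.71), TBX18 (r = 0.80, TMM 0.83) and TBX15 (r = -0.71, TMM -0.64), of which TBX15 was not called with TMM. The E protein gene TCF4 also opposed PRRX2 (r = -0.85, rho = -0.84, adjusted permutation p = 0.00479, TMM -0.87). Of the lineage factors, the fat cell factors CEBPA (r = 0.71, TMM 0.77) and PPARG (r = 0.70, TMM 0.75) were called positive and SOX6, a cartilage factor, negative (r = -0.79, TMM -0.81). Of 14 TGF-beta genes tested, TGFBR2 (r = -0.77, TMM -0.75) and TGFB3 (r = -0.69, TMM -0.65) were called, both negative. Without clones P and Q, r was -0.75 for TCF4, 0.73 for TBX18, -0.72 for SOX6, 0.67 for CEBPA, -0.64 for EBF1, -0.59 for TGFBR2, -0.55 for TBX15, 0.49 for PPARG and -0.37 for TGFB3. Without clones C, G, L and O the adjusted permutation p of these relations lay between 0.0584 for TBX15 and 0.184 for EBF1.

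The genes most like SNAI1 were SEMA7A (r = 0.93, rho = 0.90), a membrane-bound semaphorin, FAM216A (r = 0.90, rho = 0.88) and RGS17 (r = 0.90, rho = 0.91), a regulator of G protein signalling. SEMA7A was lowest in clone M at 6.50 CPM and highest in clone O at 69.5 CPM. Of all genes, 13.7% were called positive with SNAI1. Of the 14 TGF-beta genes, 2 were called with SNAI1, both positive, a count near that share (median r 0.22, against 0.15 over all genes). These were the ligand gene TGFB1 (r = 0.88, rho = 0.85, adjusted permutation p = 0.00448, TMM 0.86) and SMAD7, which TGF-beta signalling induces and which inhibits it (r = 0.87, rho = 0.88, adjusted permutation p = 0.00512, TMM 0.85). ID1, which encodes an inhibitor of E proteins, went from 2.18 CPM in clone D to 61.0 CPM in clone O and had r = 0.88 with SNAI1 (rho = 0.84, adjusted permutation p = 0.00448, TMM 0.85). SOX9 had r = 0.77 (TMM 0.70), and PAK1, a kinase that phosphorylates Snail, r = -0.83 (TMM -0.79). Without clones C and O, r was 0.76 for TGFB1, 0.80 for SMAD7, 0.79 for ID1 and -0.84 for PAK1. Without clones C, G, L and O it was 0.68, 0.72, 0.71 and -0.83, with adjusted permutation p of 0.176, 0.145, 0.143 and 0.0783, so none was called. Over all genes, the calls with SNAI1 fell from 1568 positive and 485 negative to 132 and 46 without clones C and O and to 2 and 1 without C, G, L and O.

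The genes most like SNAI2 were TBKBP1 (r = 0.90, rho = 0.89), CREB3 (r = 0.90, rho = 0.85) and TRPC1 (r = 0.90, rho = 0.87), a cation channel gene. SNAI2 opposed TGFB1 (r = -0.80, TMM -0.72), ID1 (r = -0.72, TMM -0.73) and SOX9 (r = -0.79, TMM -0.83). It was called positive with CTGF (r = 0.66, TMM 0.74) and PAK1 (r = 0.69, TMM 0.75). Runs without clones C and O, the 2 lowest in SNAI2, are not given here for these relations. Over all genes, the calls with SNAI2 fell from 516 positive and 2057 negative to 116 and 446 without clones C and O. Without C, G, L and O they were 2 and 3. Of the 11 corepressor genes tested, 7 were called with SNAI2, all negative (median r -0.70, against -0.20 over all genes), and 5 with SNAI1, all positive (median r 0.53, against 0.15), where 17.9% of all genes were called negative with SNAI2 and 13.7% positive with SNAI1. The histone deacetylase gene HDAC1 had r = -0.76 with SNAI2 and 0.79 with SNAI1 (TMM -0.75 and 0.80), and SIN3A, a scaffold of deacetylase complexes, -0.85 and 0.73 (TMM -0.87 and 0.68). TWIST2 was called with 6 of these corepressor genes, all positive (18.5% of all genes), and PRRX1 with 4, all negative (15.2% of all genes). With TMM the counts were 6 for SNAI2, 4 for SNAI1, 1 for TWIST2 and 2 for PRRX1. Without clones C and O they were 1, 0, 2 and 3 in the same order, and without C, G, L and O, the clones highest in proliferation genes, 0 was called with any of the 4 factors. Of the 9 genes that govern Snail stability, SNAI1 was called with PAK1 alone and SNAI2 with PAK1 and FBXL14 (r = -0.70, not called with TMM). PRRX1 was called negative with 4 of the 9 (15.2% of all genes). TWIST2 was called positive with 2 of the 9, a count near its share over all genes (18.5%). With TMM 0 of the 9 were called negative with PRRX1 and 0 positive with TWIST2, and without clones C, G, L and O these counts were 1 and 0.

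Of the 12 proliferation genes, all were called with TWIST2, SNAI1 and SNAI2. They were called positive with TWIST2 (median r 0.79, against 0.32 over all genes) and with SNAI1 (median r 0.75, against 0.15), and negative with SNAI2 (median r -0.80, against -0.20). With PRRX1 10 of 12 were called, all negative (median r -0.66, against -0.33). Of all genes, 18.5% were called positive with TWIST2, 13.7% positive with SNAI1, 17.9% negative with SNAI2 and 15.2% negative with PRRX1. None of the 12 was called with TWIST1, PRRX2, ZEB1 or ZEB2 by library total, and 1 was called negative with ZEB2 under TMM. Under TMM the counts were 11 for TWIST2, 9 for SNAI1, 12 for SNAI2 and 9 for PRRX1, with medians over all genes between -0.02 and 0.01. The mitotic marker MKI67 went from 19.4 CPM in clone M to 649.9 CPM in clone L, and had r = 0.79 with TWIST2, 0.77 with SNAI1, -0.78 with SNAI2 and -0.66 with PRRX1.

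Clones G, C, L and O were the highest in these genes, with a mean log2(CPM + 0.25) of 6.52 to 6.80 over the list, while the other 13 clones lay between 2.68 and 5.46 and the heterogeneous library at 2.40. In those 13 clones, 5 of the 12 genes were called with TWIST2 and 0 with SNAI1, SNAI2 or PRRX1. There the r of MKI67 was higher than over the 17 clones with TWIST2 and nearer 0 with the others, at 0.85 with TWIST2, 0.45 with SNAI1, -0.40 with SNAI2 and -0.53 with PRRX1. Without clones C and O, 11 genes were called with TWIST2, 0 with SNAI1, 2 with SNAI2 and 6 with PRRX1. Leaving out clone O alone gave 7 for SNAI1. For PRRX1 the count depended on single clones, at 0 without L, 1 without M, 3 without B, E or F, 4 without G, 5 without C, H or O and 6 without A, I or J. The heterogeneous library, lowest in proliferation genes, held 2.98 CPM of TWIST2 and 81.7 CPM of SNAI2, each above 7 of the clones. It held 14.98 CPM of SNAI1, above 3 clones, and 354.6 CPM of PRRX1, above 4. None of these was at an end of the clones' range, as the plot against the proliferation genes shows.

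**Figure D4:**
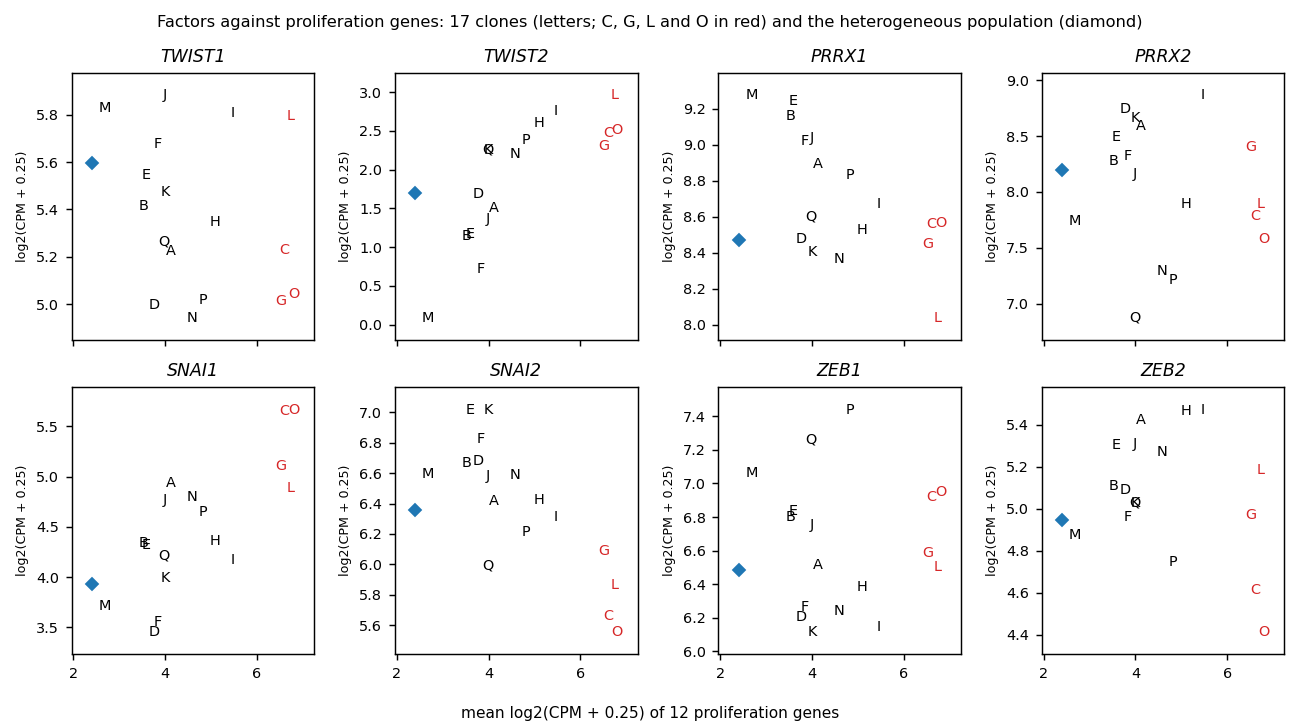
Level of each factor, as log2(CPM + 0.25), against the mean log2(CPM + 0.25) of 12 proliferation genes in the 17 clones (letters, C, G, L and O in red) and the heterogeneous population (blue diamond). TWIST2 rises from clone M to clone L and continues to rise among the 13 clones at or below 5.46, where the r of MKI67 was 0.45 with SNAI1 and -0.40 with SNAI2.

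ZEB1 and ZEB2 followed few of the listed genes, as they followed few of all genes. Over all genes 2.61% were called with ZEB1 and 1.81% with ZEB2, in either direction. The genes most like ZEB1 were GPR45 (r = 0.86, rho = 0.76), which did not exceed 32 reads, ECI1 (r = 0.86, rho = 0.85), an enzyme of fatty acid oxidation, and BNIP3 (r = 0.84, rho = 0.86), a mitophagy gene that hypoxia induces. BNIP3 was highest in clone P at 251.0 CPM, the clone highest in ZEB1, and lowest in clone F at 35.3 CPM. Of the 6 E protein and ID genes tested, ID2 (r = -0.76, rho = -0.65, adjusted permutation p = 0.0102, TMM -0.73) and ID3 (r = -0.73, rho = -0.79, adjusted permutation p = 0.0148, TMM -0.76) opposed ZEB1. ZEB1 was also called with FGFR1 (r = 0.64, TMM 0.66) and MEOX1 (r = -0.70, TMM -0.59, not called with TMM). It was called with none of the 18 mesenchymal genes tested, a count near its share over all genes (2.61%). Runs without clones P and Q, the 2 highest in ZEB1, are not given here for ID2, ID3, FGFR1 and MEOX1. The genes most like ZEB2 were VAT1 (r = 0.86, rho = 0.85), SH2D7 (r = 0.86, rho = 0.85) and EMP3 (r = 0.86, rho = 0.75), all of them lowest in clone O, where ZEB2 was lowest too.

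SNAI and ZEB proteins are known to repress epithelial genes, and most of the 24 epithelial genes listed were near the floor in the clones. Of the 24 genes, 4 had a CPM above 1 in any clone, and 4 had no read in any library. The mesenchymal cadherin gene CDH11 and the corepressor gene LIMD1 also had 0 reads in every library. A gene without reads may thus be silent or may not have been counted, and these files do not tell which. CDH1 was at 0.290 CPM in clone N, 0.664 CPM at the median and 6.01 CPM in clone H. In the heterogeneous library CDH1 stood at 8.89 CPM, from 143 reads, above every clone. ESRP2, GRHL1 and DSP, which also exceeded a CPM of 1 in a clone, lay within the clones' range there. DSP, a desmosome gene, went from 0.363 CPM in clone N to 14.4 CPM in clone O. EPCAM and KRT19 did not exceed 2 reads in any clone. Of the 4 genes tested, GRHL1, an epithelial transcription factor with at most 56 reads, was called with ZEB2 (r = -0.77, rho = -0.65, adjusted permutation p = 0.0115, TMM -0.70), and r was -0.47 without clones C and O. No other factor was called with an epithelial gene. Among 8 known dermal and bone targets of TWIST and PRRX tested, FGFR1 (r = 0.67) and POSTN (r = 0.71) were called with SNAI1, and 0 were called with TWIST1, TWIST2, PRRX1 or PRRX2. The share of all genes called positive with SNAI1 was 13.7%, and without clones C, G, L and O only 2 genes were. Of the marker lists, the mesenchymal stromal markers CD44 and CXCL12 were called with TWIST2 (r = 0.68 for both), CD44 with PRRX1 (r = -0.68) and NT5E with SNAI1 (r = 0.69). Of the 4 endothelial markers tested, ERG and PECAM1 were called with TWIST2 (r = 0.76 and 0.75), ERG with SNAI1 (r = 0.70) and PECAM1 with SNAI2 (r = -0.69), while the summed endothelial markers did not exceed 88.52 CPM in a clone. Of all genes, 18.5% were called positive with TWIST2 (5.13% with TMM), 15.2% negative with PRRX1 and 17.9% negative with SNAI2. TMM values and runs without clones are not given here for these targets and markers.

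Measures of the libraries moved with some factors. The share of reads outside genes had r = -0.71 with PRRX1 (rho = -0.71, permutation p = 0.00089) and r = 0.58 with TWIST2 (rho = 0.67, permutation p = 0.0163). The log2 number of reads on genes had r = 0.60 with ZEB1 (rho = 0.63, permutation p = 0.00946) and r = 0.48 with PRRX1 (rho = 0.56, permutation p = 0.0482). Over the 16 relations of a factor with a library measure, the adjusted permutation p was 0.0142 for PRRX1 with the share outside genes, 0.0757 for ZEB1 with reads on genes, 0.0869 for TWIST2 with the share outside genes and 0.162 for PRRX1 with reads on genes. The part of depth or of reads outside genes in the relations above was not tested.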

How the data were processed

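Polyadenylated RNA of 17 bovine MSC clones and 1 heterogeneous population was read from 1 end, 50 bases per read. The authors aligned reads to bosTau7 with STAR 2.3.0e and, with HTSeq and RefSeq annotation release 103, made the raw counts per gene that they deposited without normalization. The study used FPKM; here log2(CPM + 0.25) on the total of reads on genes took its place, so a gene's value also depends on the share that other genes take. The 5 tally lines per file that name no gene were left out of library sizes, and all alignments outside genes came to 18.78% to 26.81% of a clone's file. The table of the whole series repeats the same counts and was not used.

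Groups came from the labels. The heterogeneous library was tested against the clones, and each clone against the other 16, with edgeR 4.0.16 (TMM, filterByExpr, glmQLFit, glmQLFTest) in R 4.3.3, with limma 3.58.1 and DESeq2 1.42.0 as alternatives. Spread was tested by an index of dispersion over genes with a mean of at least 5 reads. Correlations used genes with a CPM above 1 in a clone and 100000 permutations, for which the smallest possible p is 1e-05. All p-values were Benjamini-Hochberg adjusted over all genes or combinations tested, with a threshold of 0.05. For the pairs of factors the larger of the p-values from the 2 directions was taken. Scripts were tested on simulated data. Correlations, summaries and plots were made in Python 3.11.15 (pandas 2.3.3, numpy 2.4.6, matplotlib 3.10.9, scipy 1.17.1).

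All 8 factors, the 3 genes most like each, and of each gene list at most 4 genes per factor (those called, then those with the highest levels) were to be named; genes named beyond this, such as MYF5 and DSP, were chosen after their values were seen. Not every gene selected this way is reported here. The factors and lists were chosen with earlier results of these data known. Alternatives were the scaling, pseudocount, filter, tool, rank correlation, all 18 libraries and each clone left out. The runs without clones C and O, P and Q, or C, G, L and O were chosen after seeing the data. The RefSeq genes of ARS-UCD2.0 include all 8 symbols, but that build is not the one used by the authors, so no coordinates or sequences are given. Clones were not replicated. The p-values of edgeR, limma and DESeq2 take the spread between clones as error, and the tested library is assumed to vary likewise. Those of the index of dispersion set the spread between clones against counting error. Permutation p-values test whether levels are associated over the clones.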

Additional observations from a re-analysis of the deposited data

How the results depend on the processing

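The count of factors called in the heterogeneous library (0), of combinations of a factor and a clone called (0) and of factors varying beyond counting error (8) did not change under any alternative run, the clones left out in turn included where they were run. The 3 called pairs of factors became 1 without clones C and O and 0 without clones C, G, L and O, and 1 to 3 when each clone was left out. Fewer clones also give less power, and the cause was not tested. The log2 difference of SNAI2 between the heterogeneous library and the clones, -0.03, turned to 0.0535 with limma and lay between -0.0587 and 0.0334 when each clone was left out. The r of SNAI2 and ZEB2 turned to -0.005 without clones C, G, L and O. Of the 12 proliferation genes, the count called with TWIST2 fell to 5 without clones C, G, L and O and was 10 to 12 when each clone was left out. With SNAI1 it was 0 without clones C and O and without C, G, L and O, and 7 to 12 when each clone was left out. With SNAI2 it was 2 and 0 in the same runs and 11 to 12 when each clone was left out. With PRRX1 it was 6 with DESeq2 size factors, 1 with Spearman's rho, 1 with all 18 libraries, 6 without clones C and O, 0 without clones C, G, L and O, and 0 to 11 when each clone was left out. Over all genes, the 145 genes called in the heterogeneous library became 89 with DESeq2, the 90 combinations of a gene and a clone became 524 with limma and 5 without clone N among the others, and the 10414 combinations of a factor and a gene became 6308 without clone O, 6745 without clone L, 6778 without clone C, 3379 without clones C and O and 333 without clones C, G, L and O. No paired analysis was possible because each clone has 1 library and the labels number no replicates. At 15 to 105 TWIST2 reads per clone, counting error limits that factor most.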
